A study of Mus musculus with 15 samples.

Results

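The genes described here are 36 genes of T cells and natural killer (NK) cells, read from a table of 38315 genes by their symbols. They comprise 18 T cell genes, 13 genes of NK cells and cytotoxic function, and 5 genes used by both cell types. Each symbol occurred once in the table. The 15 libraries were bulk RNA sequencing of total RNA from mouse bone marrow in 3 groups. The first was marrow with acute myeloid leukaemia (AML) in 7 samples from transgenic mice of the genotype NUP98-NSD1/FLT3-ITD, which joins the nucleoporin gene NUP98 to the methyltransferase gene NSD1 and adds an internal tandem duplication of the receptor kinase FLT3. The others were normal marrow of wild-type mice, taken whole (n = 4) or as a lineage-negative fraction (n = 4), that is, marrow depleted of cells with mature lineage antigens. The labels give neither the promoters that drive the transgenes, nor the age and sex of the mice, nor the antibodies of the depletion. They do not say whether each library came from a separate mouse, so the p-values below measure the spread between these libraries.

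A T cell recognises antigen through its receptor, a pair of alpha and beta chains that cannot signal by themselves and are held at the surface by the CD3 chains. CD4 or CD8 binds the MHC molecule beside the receptor and brings the kinase Lck, which starts a cascade through Zap70 and the adaptor Lat. NK cells have no rearranged antigen receptor. They weigh signals from activating and inhibitory receptors encoded in their germline genes and kill with perforin and granzymes, an equipment shared with cytotoxic T cells. In normal marrow both are a minority among granulocytes, red cell precursors and B lineage cells.

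Values are normalized counts, the authors' estimated reads per gene after scaling each library by a DESeq2 size factor. Estimated depth was 20.3 to 35.1 M reads (M, mega) in AML, 11.4 to 17.2 in whole marrow and 20.3 to 28.1 in lineage-negative marrow. A level of 3 reads, used as a floor, corresponded to normalized counts of 1.96 to 4.09. A log2 difference is the difference between 2 group means of log2(value + 1), with its standard error (SE) from limma. A gene was called higher or lower at a Benjamini-Hochberg adjusted p under 0.05 over all 18941 genes tested and a log2 difference of at least 1 in size. All 36 genes had enough signal to be tested. Over all genes tested, the median log2 difference was 0.67 between AML and whole marrow and 0.59 between lineage-negative and whole marrow, but 0.02 between AML and lineage-negative marrow. The TMM method (trimmed mean of M values) brought these medians to −0.01, −0.09 and 0.03. Some results against whole marrow therefore carry a second value, the relative difference, from which the median of all genes has been subtracted. Differences from whole marrow given without it still contain this shift. Olfactory and vomeronasal receptor genes, 1452 genes of sensory neurons, had 1.90 to 3.59 normalized counts per kb of exon in whole marrow, 0.102 to 0.133 in lineage-negative marrow and 0.124 to 1.01 in AML. Over this level, the group medians of the 36 genes per kb lay 2.93-fold (Icos) to 275-fold (Nkg7) in whole marrow, at least 15.03-fold (Cd8b1) in lineage-negative marrow and at least 39.9-fold (Txk) in AML.

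T cell genes were higher in AML than in lineage-negative marrow almost throughout, and NK genes were higher in part. Of 18 T cell genes 15 rose and none fell, of 13 NK and cytotoxic genes 7 rose and Nkg7 fell, and of 5 shared genes 3 rose. That made 25 of 36 genes called higher, where 17.7% of all genes tested were, and 1 called lower, where 12.5% were. Median log2 differences were 3.08 for T cell genes, 1.77 for NK and cytotoxic genes and 1.34 for shared genes. TMM scaling gave the same counts for each class, against 17.6% and 12.5% of all genes. In 23 genes every AML library lay above every lineage-negative library, and in Nkg7 every one lay below, where 17% and 17.6% of all genes were so separated. The AML labels name no depletion. Leukaemia and the depletion of mature cells therefore cannot be told apart in this comparison, here and below.

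Against whole marrow the deposited scaling called 16 of the 36 genes higher in AML and none lower, where 27.3% of all genes were called higher and 11.3% lower. These were 12 of 18 T cell genes, 3 of 13 NK and cytotoxic genes (Klrd1, Klrk1 and Tbx21) and 1 of 5 shared genes (Zap70). With TMM scaling Cd5 and Cd6 were called higher and Ncr1 and Klrb1c lower, where 4.74% and 16% of all genes were. The other genes called higher with the deposited scaling were not called with TMM, at log2 differences of 0.38 (Cd3d) to 1.16 (Icos). Relative to all genes, the median difference was 0.61 for T cell genes, −0.05 for NK and cytotoxic genes and 0.16 for shared genes. In Cd3g, Trac, Cd5 and Cd6 all 7 AML libraries lay above all whole marrow libraries and in none of the 36 all lay below, where 35.8% and 7.88% of all genes were so separated. Without whole marrow replicate 1 the genes called higher with the deposited scaling numbered 5, and without AML replicate 6 Gzma was called lower.

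Lineage-negative marrow had less of most of these transcripts than whole marrow. With the deposited scaling 15 of 36 genes were lower, 9 of the T cell class and 6 of the NK and cytotoxic class, where 17.2% of all genes were lower. Lat and Nkg7 were higher, where 33.1% of all genes were. TMM scaling called 27 genes lower and none higher, where 24.7% and 11.1% of all genes were called. The lineage-negative libraries lay wholly below whole marrow in 18 genes and wholly above in 3, against 16.6% and 41.1% of all genes. Fewer T or NK cells and less of a transcript per cell cannot be told apart in bulk RNA, here and in all results below. Both comparisons with AML share the AML libraries, and each normal group serves in 2 comparisons.

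**Figure D1:**
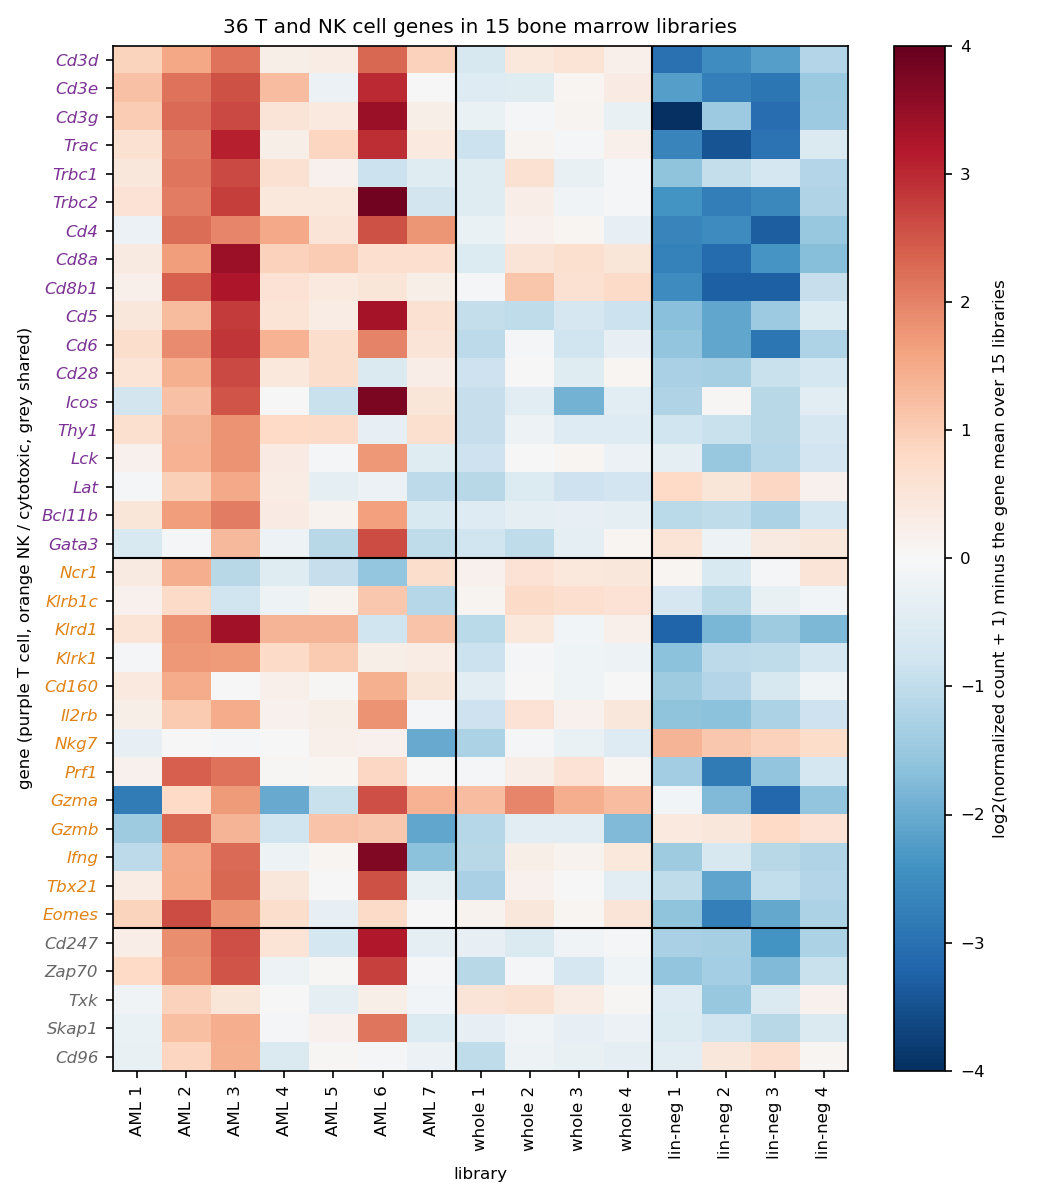
Level of each of the 36 genes (vertical axis) in each of the 15 libraries (horizontal axis), as log2(normalized count + 1) minus the mean of the gene over all libraries. Most T cell genes are red in AML replicates 2, 3 and 6, with Gata3 blue in replicate 2 and Trbc1, Cd28, Thy1 and Lat blue in replicate 6. In lineage-negative marrow most T cell genes are blue, while Lat, Nkg7 and Gzmb are red in every library and Gata3 and Cd96 in part of the libraries.

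The 3 invariant CD3 chains were higher in AML than in both normal groups with the deposited scaling, and lower in lineage-negative than in whole marrow. Cd3e (ENSMUSG00000032093, chromosome 9, 44910038 to 44920925 in the table's coordinates), a signalling chain of the CD3 complex, had 49.1, 138 and 464 normalized counts in AML (lowest, median and highest of 7), 40.4, 41.5, 61.6 and 73.7 in whole marrow replicates 1 to 4, and 11.8, 7.93, 7.05 and 20.2 in lineage-negative replicates 1 to 4. Every AML library was above every lineage-negative one, and 5 of 7 were above all of whole marrow. The log2 difference was 3.73 against lineage-negative marrow (SE 0.51, adjusted p = 6.52e-06) and 1.55 against whole marrow (SE 0.51, adjusted p = 0.0128), or 0.88 relative to all genes. Cd3g (ENSMUSG00000002033, chromosome 9, 44880870 to 44891729), the gamma chain, had 105, 178 and 967 in AML, 72.7, 85.8, 96.01 and 70.9 in whole marrow and 4.54, 31.7, 9.69 and 31.3 in lineage-negative marrow. All 7 AML libraries exceeded both normal groups, with log2 differences of 3.99 and 1.63 (0.95 relative). Cd3d (ENSMUSG00000032094, chromosome 9, 44893084 to 44898637), the delta chain, had 76.05, 122 and 322 in AML, 41.3, 85.8, 93.9 and 73.7 in whole marrow and 7.26, 10.6, 13.2 and 28.1 in lineage-negative marrow. It differed by 3.41 from lineage-negative marrow and by 1.07 from whole marrow (0.40 relative), and AML overlapped whole marrow in 2 libraries. All 3 chains fell in lineage-negative against whole marrow, by log2 differences of −2.34, −2.18 and −2.37 for Cd3d, Cd3e and Cd3g, with no overlap.

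Cd3d and Cd3g are neighbours on chromosome 9 and are read in opposite directions from start sites that lie close together. Their promoter windows are shown because both genes were called in the same direction in all 3 comparisons. Each holds 250 bases before and 50 after the start, from RefSeq on GRCm38.p6, with capitals for the letters of a RUNX motif (TGTGGT), an E-box (CANNTG) or a GATA motif (AGATAA) on either strand. The Cd3d window is chr9:44981536-44981835 on the plus strand and the Cd3g window chr9:44980382-44980681 on the minus strand.
Cd3d: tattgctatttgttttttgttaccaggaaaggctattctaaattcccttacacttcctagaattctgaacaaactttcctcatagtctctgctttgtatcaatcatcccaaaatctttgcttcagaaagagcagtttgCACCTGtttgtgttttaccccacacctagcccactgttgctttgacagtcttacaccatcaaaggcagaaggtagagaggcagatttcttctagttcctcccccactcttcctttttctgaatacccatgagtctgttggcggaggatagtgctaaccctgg
Cd3g: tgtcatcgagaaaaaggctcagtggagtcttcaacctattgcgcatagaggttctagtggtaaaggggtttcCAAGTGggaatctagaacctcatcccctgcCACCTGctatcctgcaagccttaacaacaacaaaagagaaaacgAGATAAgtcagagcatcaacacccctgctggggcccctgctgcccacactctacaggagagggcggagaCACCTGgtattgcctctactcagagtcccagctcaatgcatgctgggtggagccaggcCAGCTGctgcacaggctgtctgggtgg
The Cd3d window held 1 E-box, while the Cd3g window held 4 E-boxes and 1 GATA motif. Promoter windows were matched by symbol for 24 of the 36 genes. RUNX letters occurred in 11 of the 24, against 16.9% of 27025 promoters of the same length, and E-box letters in 21 of 24, against 72.1%. The GATA letters occurred in 1 of 24 (11.4% of all promoters), an ETS motif (CCGGAA) in 2 (15.2%) and a T-box motif (TCACAC) in 7 (14.4%). These are matches of letters and not binding sites.

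Trac, the constant region of the receptor alpha chain, had 79.4, 124 and 592 in AML, 36.8, 73.7, 64.7 and 77.8 in whole marrow and 9.98, 5.29, 7.93 and 45.03 in lineage-negative marrow. AML was wholly above both normal groups, by 3.86 against lineage-negative marrow (SE 0.58, adjusted p = 1.78e-05) and 1.61 against whole marrow (SE 0.58, adjusted p = 0.0203; 0.94 relative). Lineage-negative replicate 4 held 45.03 of Trac, above whole marrow replicate 1, although the fall of −2.25 between the normal groups passed the test. Trbc2, one of 2 beta constant genes, had 79.1, 198 and 1912 in AML, 94.5, 158, 119 and 124 in whole marrow and 24.1, 18.4, 21.2 and 56.4 in lineage-negative marrow. Its rise was 3.58 over lineage-negative and 1.45 over whole marrow, the latter with an adjusted p of 0.0452. Trbc1, the other beta constant gene, had 36.2, 92.9 and 420.2 in AML, 47.4, 103, 54.05 and 65.4 in whole marrow and 21.3, 34.5, 40.5 and 29.1 in lineage-negative marrow. Its rise against lineage-negative marrow was smaller, at 1.78, and its 0.73 against whole marrow (adjusted p = 0.224) did not pass.

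Calls of CD3 and receptor genes against whole marrow depended on single libraries. Whole marrow replicate 1 had the lowest estimated depth of all libraries (11.4 M reads). Its olfactory and vomeronasal receptor level was the highest (3.59 per kb), and it was the lowest whole marrow library for 26 of the 36 genes. Without whole marrow replicate 1, Cd3e was 1.42, Cd3g 1.58 and Trac 1.37, and none of them passed. The call of Cd3d was lost without AML replicate 2 (1.01), 3 (0.91) or 6 (0.88) and without whole marrow replicate 1 (0.82) or 4 (1.09). That of Trbc2 was lost without AML replicate 2 (1.33), 3 (1.21) or 6 (1.03), without whole marrow replicate 1 (1.32), 2 (1.57), 3 (1.44) or 4 (1.45), and without lineage-negative replicate 3 (1.45). With AML replicates 5 and 6 both left out, Trac (1.43, adjusted p = 0.0542) and Trbc2 (1.13, adjusted p = 0.085) did not pass. Trbc2 also missed the threshold with a pseudocount of 0.1 (adjusted p = 0.0528), without the filter on low values (0.0552), with the 2 groups fitted alone (0.0533) and with a robust fit (0.0977).

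Of the co-receptor genes, all 3 were higher in AML than in lineage-negative marrow, and Cd4 was also called against whole marrow; the difference between Cd4 and the Cd8 genes was not tested. Cd4 (ENSMUSG00000023274, chromosome 6, 124841655 to 124865184), the co-receptor for MHC class II, had 162, 657 and 1124 in AML, 159.8, 218, 205 and 154 in whole marrow and 29.95, 32.6, 18.5 and 67.2 in lineage-negative marrow. All AML libraries were above lineage-negative marrow and 6 of 7 above whole marrow, by 3.96 (SE 0.42, adjusted p = 2.89e-07) and 1.55 (SE 0.42, adjusted p = 0.00389; 0.87 relative). Cd4 is also known in monocytes, macrophages and dendritic cells of some kinds. Cd8a, the alpha chain of the MHC class I co-receptor, had 76.3, 112 and 645 in AML, 40.4, 84.4, 92.9 and 83.2 in whole marrow and 8.17, 6.17, 10.6 and 17.6 in lineage-negative marrow. It rose by 3.71 against lineage-negative marrow, and its 0.97 against whole marrow (adjusted p = 0.073) did not pass, but did without AML replicate 1 (1.12). Cd8b1, the beta chain, had 29.3, 35.8 and 246 in AML, 24.2, 56.3, 39.7 and 43.7 in whole marrow and 3.63, 1.76, 1.76 and 13.1 in lineage-negative marrow, where replicates 2 and 3 lay under the floor. Cd8b1 rose by 3.56 against lineage-negative marrow, while its difference from whole marrow was 0.47 with the deposited scaling and −0.21 with TMM, neither past the test. Per kb of exon the ratio of Cd4 to Cd8a ran from 1.67 to 3.57 in whole marrow, from 1.58 to 4.77 in lineage-negative marrow and from 1.05 (replicate 3) to 10.8 (replicate 6) in AML, so that AML spanned the whole marrow range.

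Among surface molecules that tune the receptor signal, Cd5 and Cd6 stood highest over whole marrow. Cd5 (ENSMUSG00000024669, chromosome 19, 10694480 to 10716366), a scavenger-receptor family protein that dampens receptor signalling, had 92.5, 113 and 754 in AML, 37.7, 36.2, 45.9 and 40.9 in whole marrow and 22.7, 16.7, 26.4 and 50.3 in lineage-negative marrow. Cd6 (ENSMUSG00000024670, chromosome 19, 10766705 to 10807422), its relative encoded nearby on chromosome 19, had 133, 243 and 674 in AML, 43.98, 87.1, 52.2 and 73.7 in whole marrow and 29.95, 21.2, 11.5 and 38.5 in lineage-negative marrow. For both, all 7 AML libraries lay above all 8 normal libraries. Against whole marrow the log2 difference was 2.21 for Cd5 (SE 0.50, adjusted p = 0.000848) and 2.00 for Cd6 (SE 0.41, adjusted p = 0.000384). Their relative differences were 1.53 and 1.33. With TMM scaling both passed, at 1.52 (adjusted p = 0.0338) and 1.31 (adjusted p = 0.0215), and by voom on estimated reads neither did, at 1.45 and 1.29. Against lineage-negative marrow they rose by 2.77 and 3.38. Between the normal groups Cd6 fell by 1.39, a call lost without lineage-negative replicate 3 (−1.07) and with the olfactory and vomeronasal receptor level subtracted (−0.76, adjusted p = 0.213), and Cd5 did not pass (−0.56, adjusted p = 0.39).

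Thy1, a glycolipid-anchored surface protein of mouse T cells, had 170.3, 369 and 745 in AML, 112, 186, 150.3 and 149 in whole marrow and 123, 115, 98.7 and 134 in lineage-negative marrow. It rose by 1.35 against whole marrow (SE 0.29, adjusted p = 0.000568) and 1.67 against lineage-negative marrow, and AML replicate 6 was its lowest AML library. Cd28, the receptor of the main costimulatory signal, had 57.997, 129 and 547 in AML, 48.5, 88.4, 61.6 and 92.8 in whole marrow and 34.5, 34.4, 46.7 and 53.5 in lineage-negative marrow. It rose by 1.82 against lineage-negative marrow and by 1.07 against whole marrow, the latter call lost without AML replicate 2 (0.97) or 3 (0.76) and without whole marrow replicate 1 (0.90) or 3 (1.01). Icos, a costimulator induced on activated T cells, had 23.6, 63.6 and 627 in AML, 23.3, 32.2, 11.5 and 32.7 in whole marrow and 19.1, 45.8, 20.3 and 33.3 in lineage-negative marrow. It was called against whole marrow at 1.84, lost without whole marrow replicate 1 (1.84) or 3 (1.52). Against lineage-negative marrow it was 1.58 and not called, but was without AML replicate 1 (1.86) or 5 (1.88). The mean of Icos in AML was 165 with replicate 6 and 87.6 without it.

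Signalling and transcription factor genes behaved unevenly. Lck, the kinase bound to the co-receptors, had 151, 264 and 740.2 in AML, 118, 206, 220.2 and 177 in whole marrow and 159, 72.3, 95.2 and 123 in lineage-negative marrow. It rose by 1.66 against lineage-negative marrow, and its 0.96 against whole marrow (adjusted p = 0.0387) missed the size required. Without AML replicate 1, 4, 5 or 7 or whole marrow replicate 2 or 3 it passed, at 1.02 to 1.15. Bcl11b, the factor that fixes T cell identity, had 57.2, 121 and 363 in AML, 60.1, 65.7, 68.9 and 66.9 in whole marrow and 40.8, 42.3, 35.3 and 52.9 in lineage-negative marrow, and rose by 1.22 and 1.83 against these groups. Gata3, a factor of T cell development and of helper and innate lymphoid cells, had 22.7, 43.1 and 307 in AML, 27.8, 24.1, 37.6 and 51.8 in whole marrow and 73.5, 43.2, 64.3 and 68.5 in lineage-negative marrow. It passed in none of the 3 comparisons, and its mean in AML was 85.8 with replicate 6 and 48.9 without it.

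Lat (ENSMUSG00000030742, chromosome 7, 125962996 to 125968742), the membrane adaptor phosphorylated by Zap70, departed from the other T cell genes in the normal groups. It had 56.1, 111 and 341 in AML, 54.7, 80.4, 65.7 and 69.6 in whole marrow and 204, 165, 209 and 132 in lineage-negative marrow, so that all 4 lineage-negative libraries lay above all 4 whole marrows. The rise was 1.37 (SE 0.41, adjusted p = 0.00632) or 0.78 relative to all genes, and it was not called with TMM scaling (0.68, adjusted p = 0.178). AML did not differ from lineage-negative marrow past the test (−0.42, adjusted p = 0.366). Against whole marrow it was 0.95 and short of the size required, which it reached without AML replicate 5 (1.04), 6 (1.01) or 7 (1.15) or whole marrow replicate 2 (1.04). Lat also serves mast cells, basophils and platelets. Of 7 mast cell and basophil markers 5 were tested, and all 5 were higher in lineage-negative than in whole marrow and lower in AML than in either. Of all genes, 33.1% were higher in lineage-negative than in whole marrow. In AML 11.3% were lower than in whole and 12.5% lower than in lineage-negative marrow. The summed level of these markers per kb was 18315 to 33221 in lineage-negative marrow, 2204 to 5726 in whole marrow and 148 to 2557 in AML, and Tpsb2 and Cma1 were listed at 0 in part of the libraries. The part of these cells in the Lat values was not tested.

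Ncr1 and Klrb1c, receptors that mark NK cells, were not called in AML against either normal group with the deposited scaling, and both were lower than in whole marrow with TMM. Ncr1 (ENSMUSG00000062524, chromosome 7, 4340723 to 4348163), the activating receptor NKp46 and the most specific NK marker among these genes, had 12.3, 27.04 and 106 in AML, 43.1, 57.6, 52.2 and 53.2 in whole marrow and 40.8, 24.7, 36.1 and 55.5 in lineage-negative marrow. Whole marrow lay within the AML range. AML replicates 3 to 6 (17.2, 27.04, 19.8 and 12.3) were below all whole marrows, replicates 2 (106) and 7 (62.6) above all, and replicate 1 (49.6) among them. The difference from whole marrow was −0.64 (adjusted p = 0.233) with the deposited scaling and −1.32 (adjusted p = 0.0328) with TMM, under which it was called lower in AML. Klrb1c, the NK1.1 antigen, had 29.1, 72.2 and 139 in AML, 70.01, 109.9, 104 and 96.9 in whole marrow and 39.9, 29.96, 52.0000 and 60.04 in lineage-negative marrow. It likewise was not called with the deposited scaling (−0.52) and was lower in AML with TMM (−1.20, adjusted p = 0.0143). Against lineage-negative marrow neither Ncr1 (−0.20) nor Klrb1c (0.56) passed. Between the normal groups Klrb1c fell by 1.08 in lineage-negative marrow, a call lost without whole marrow replicate 2 (−1.0), 3 (−1.03) or 4 (−1.06) or lineage-negative replicate 1 (−1.03) or 2 (−0.90), and with the olfactory and vomeronasal receptor level subtracted (−0.96, adjusted p = 0.0591).

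Receptors that NK cells share with CD8 T cells were higher in AML than in lineage-negative marrow. Klrd1 (ENSMUSG00000030165, chromosome 6, 129568745 to 129575738), the CD94 partner of NKG2 receptors, had 41.96, 191 and 773 in AML, 35.003, 99.2, 68.9 and 85.95 in whole marrow and 7.26, 20.3, 27.3 and 20.9 in lineage-negative marrow. It rose by 3.30 against lineage-negative marrow (SE 0.54, adjusted p = 4.91e-05) and by 1.39 against whole marrow, where the call was lost without AML replicate 2 (1.30) or 3 (1.04) and without whole marrow replicate 1 (1.08) or 3 (1.40). Klrk1, the activating receptor NKG2D, had 281, 509.5 and 989 in AML, 165, 291, 267 and 258 in whole marrow and 94.4, 143, 145 and 181 in lineage-negative marrow. It rose by 1.93 and 1.13, the second dropping to 0.97 without AML replicate 2, 0.98 without AML replicate 3 and 0.95 without whole marrow replicate 1. Cd160, an Ig-family receptor of NK cells and memory T cells, had 55.1, 72.5 and 156 in AML, 40.4, 56.3, 49.05 and 55.9 in whole marrow and 19.97, 23.8, 35.3 and 49.6 in lineage-negative marrow, and rose against lineage-negative marrow alone (1.43; 0.72 against whole marrow, adjusted p = 0.0704). Il2rb, the beta chain of the interleukin-2 and interleukin-15 receptors, had 416, 513 and 1505 in AML, 248, 657, 492.6 and 596 in whole marrow and 143, 140.1, 182 and 247 in lineage-negative marrow. It rose by 2.02 against lineage-negative marrow, and against whole marrow it was 0.60 with the deposited scaling and −0.10 with TMM, neither past the test. Klrd1 and Il2rb fell in lineage-negative against whole marrow, with log2 differences of −1.91 and −1.43.

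**Figure D2:**
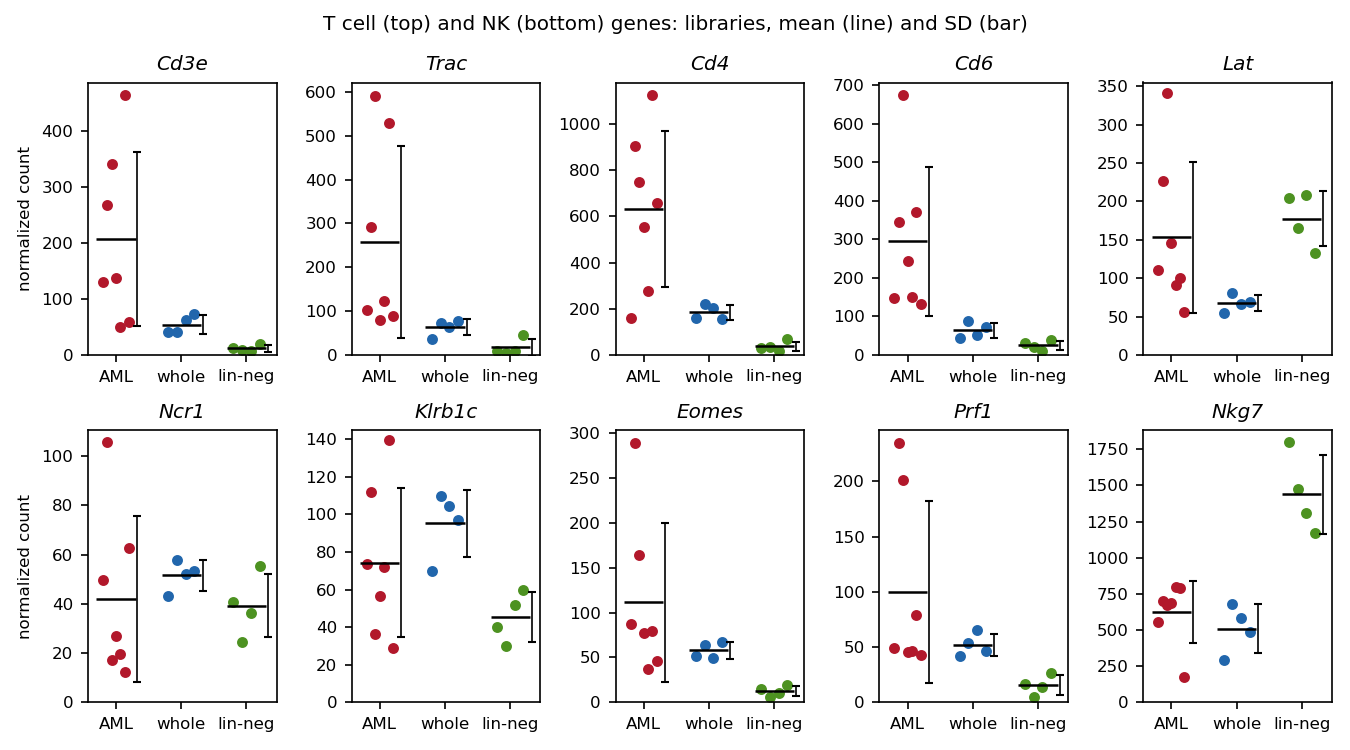
Normalized counts (vertical axis, linear from 0) of 5 T cell genes (top) and 5 NK and cytotoxic genes (bottom) in each library of the 3 groups, with the group mean as a line and the SD as a bar. Cd6 separates AML from both normal groups, Ncr1 overlaps in all groups, Klrb1c in AML overlaps both normal groups, and Lat and Nkg7 are high in lineage-negative marrow.

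Of the cytotoxic effectors, Nkg7 (ENSMUSG00000004612, chromosome 7, 43086497 to 43087673), a granule membrane protein, was the most abundant of the 36 genes per kb in every group by median, with 586 in whole marrow, 1521 in lineage-negative marrow and 755 in AML. It had 173, 690.3 and 799 normalized counts in AML, 289.9, 681, 585 and 486 in whole marrow and 1801, 1474, 1307 and 1168 in lineage-negative marrow. All lineage-negative libraries lay above all others. The log2 difference was 1.54 against whole marrow (SE 0.38, adjusted p = 0.0014; 0.95 relative), not called with TMM (0.85, adjusted p = 0.0546), and AML was lower than lineage-negative marrow, with a log2 difference of −1.31 (SE 0.33, adjusted p = 0.00297). AML against whole marrow was 0.23 with the deposited scaling, −0.47 with TMM and −0.02 without whole marrow replicate 1, none of them called. Nkg7 thus differed in direction from Prf1, the pore-forming protein, which had 43.1, 49.6 and 235 in AML, 42.2, 53.6, 65.7 and 46.4 in whole marrow and 16.3, 5.29, 14.1 and 26.8 in lineage-negative marrow. Prf1 rose by 2.43 in AML against lineage-negative marrow and fell by 1.84 in lineage-negative marrow against whole marrow, and against whole marrow AML was 0.59 (−0.093 with TMM), not called. The mast cell and basophil markers, and 7 of 7 progenitor markers, were higher in lineage-negative than in whole marrow as Nkg7 was, where 33.1% of all genes were. Progenitor markers summed to 2061 to 2602 per kb in lineage-negative marrow, 169 to 290.3 in whole marrow and 232 to 722 in AML, and their part in the Nkg7 values was not tested.

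Gzma and Ifng had the largest SDs of log2 values within AML among the 36 genes, 2.03 and 1.91, followed by Icos (1.72) and Gzmb (1.64). Gzma, a tryptase of killer granules, had 2.54, 41.6 and 146 in AML, 56.5, 95.1, 65.7 and 57.3 in whole marrow and 21.8, 6.17, 1.76 and 7.18 in lineage-negative marrow. Its lowest AML value and lineage-negative replicate 3 lay under the floor. Its highest AML value was in replicate 6, and whole marrow was narrow by comparison. It fell in lineage-negative against whole marrow (−3.13, SE 0.92, adjusted p = 0.00576). It was not called in AML against whole marrow (−1.36, adjusted p = 0.149), but was without AML replicate 6 (−1.77). Against lineage-negative marrow it was 1.77 and passed without AML replicate 1 (2.25) or 4 (2.12) or lineage-negative replicate 1 (2.28). Gzmb, the granzyme that activates caspases, had 10.8, 105 and 244 in AML, 21.5, 36.2, 36.5 and 13.6 in whole marrow and 64.4, 67.9, 86.4 and 73.1 in lineage-negative marrow. All 4 lineage-negative libraries exceeded whole marrow, but 1.5 (adjusted p = 0.0734) passed without AML replicate 2 or 7, since the libraries share one estimate of the spread. Gzmb in AML against whole marrow was 1.17 (adjusted p = 0.112) and passed without AML replicate 1 (1.44) or 7 (1.55). Ifng, the macrophage-activating cytokine, had 2.16, 9.44 and 128 in AML, 3.59, 10.7, 9.87 and 12.3 in whole marrow and 2.70, 5.29, 3.53 and 3.26 in lineage-negative marrow. Ifng was called in none of the 3 comparisons, with 1.77 against lineage-negative marrow (adjusted p = 0.0628), which passed without AML replicate 1 (2.05) or 7 (2.16). Its values in AML replicate 7 and lineage-negative replicate 1 lay under the floor, and that in AML replicate 1 (3.82) at it.

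The T-box factors that direct cytotoxic programmes rose against lineage-negative marrow. Tbx21, or T-bet, had 33.4, 56.6 and 244 in AML, 16.2, 46.9, 40.7 and 30.02 in whole marrow and 19.97, 8.81, 20.3 and 17.6 in lineage-negative marrow. The group means of Tbx21 differed by 2.30 between AML and lineage-negative marrow, and all 7 AML libraries lay above all lineage-negative ones. Against whole marrow it rose by 1.37, a call lost without whole marrow replicate 1 (1.07). Eomes, its paralog in NK and memory T cells, had 36.8, 78.97 and 289 in AML, 51.2, 64.3, 49.05 and 66.9 in whole marrow and 14.5, 6.17, 10.6 and 18.9 in lineage-negative marrow. It rose by 2.83 against lineage-negative marrow, fell by 2.20 in lineage-negative against whole marrow, and in AML against whole marrow was 0.62 with the deposited scaling and −0.062 with TMM, not called.

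The 5 shared genes encode signalling and adhesion proteins that both cell types use. Zap70, the kinase that binds phosphorylated receptor chains, had 55.8, 115 and 433 in AML, 29.6, 62.98, 40.7 and 57.3 in whole marrow and 20.9, 24.7, 18.5 and 34.6 in lineage-negative marrow. It rose by 2.48 against lineage-negative marrow and 1.58 against whole marrow, the latter lost without whole marrow replicate 1 (1.38). Cd247, the zeta chain, had 49.5, 121 and 762.2 in AML, 65.1, 54.9, 74.6 and 78.6 in whole marrow and 32.98, 31.9, 14.9 and 33.3 in lineage-negative marrow, with a rise of 2.62 against the last. Its 1.32 against whole marrow (adjusted p = 0.0517) passed without AML replicate 1 (1.46), 4 (1.41), 5 (1.62) or 7 (1.57), and its −1.30 between the normal groups without AML replicate 6 (−1.30). Skap1, an adaptor for integrin activation, had 63.6, 107 and 419.6 in AML, 75.4, 85.8, 75.1 and 79.1 in whole marrow and 63.5, 53.8, 43.2 and 63.3 in lineage-negative marrow. It rose by 1.34 against lineage-negative marrow and was called against whole marrow (0.84) once AML replicate 7 was left out (1.03). Txk, a Tec-family kinase, had 49.1, 64.2 and 123 in AML, 92.4, 100.5, 80.4 and 66.9 in whole marrow and 45.4, 22.03, 43.2 and 73.1 in lineage-negative marrow. It was called in no comparison with the deposited scaling. Leaving out lineage-negative replicate 4 brought it to a call in AML against lineage-negative marrow, and between the normal groups (−0.98) it passed without whole marrow replicate 4 (−1.08) or lineage-negative replicate 1 (−1.01) or 4 (−1.23). Cd96, an adhesion receptor of the CD226 family, had 36.3, 53.1 and 151 in AML, 26.9, 48.2, 44.9 and 42.3 in whole marrow and 39.9, 75.8, 88.1 and 58.7 in lineage-negative marrow, and was called nowhere. Its difference from whole marrow was 0.63 in AML and 0.65 in lineage-negative marrow with the deposited scaling, and −0.051 and −0.028 with TMM.

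**Figure D3:**
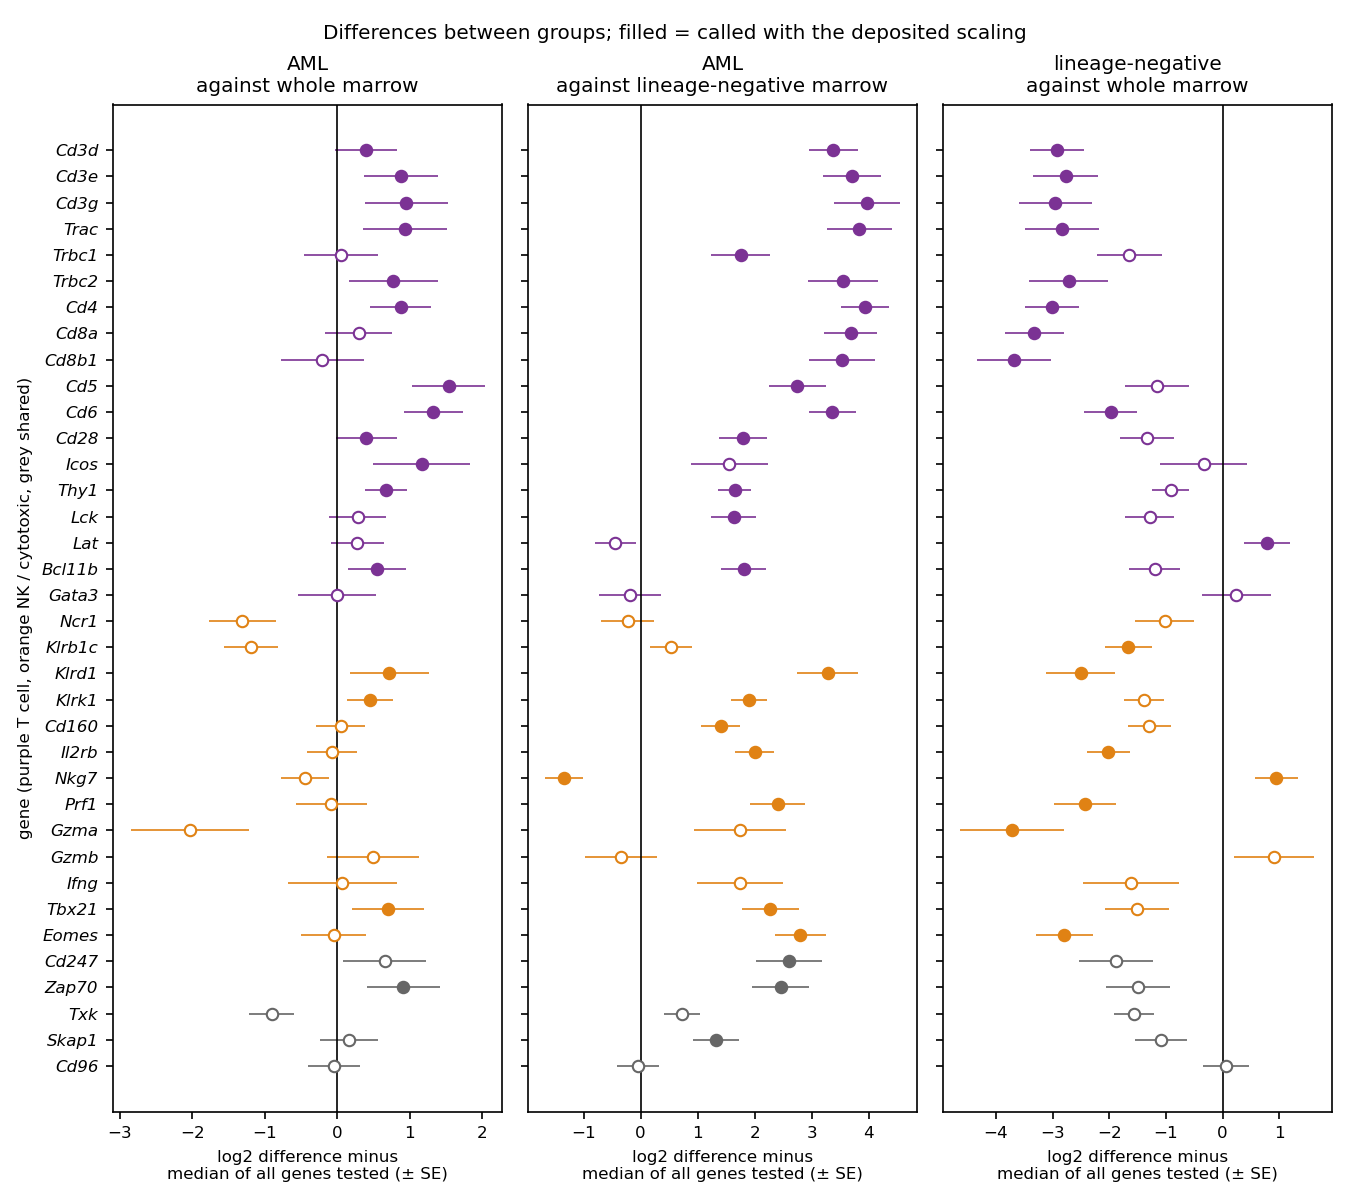
Log2 difference of each of the 36 genes minus the median of all genes tested (horizontal axis, bars ± SE) in the 3 comparisons, filled where the gene was called with the deposited scaling. Against whole marrow most T cell genes lie right of 0 and NK genes on both sides. With TMM scaling the NK genes Ncr1 and Klrb1c were called lower and the T cell genes Cd5 and Cd6 higher.

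The contrast between the classes was read within each library, where a change of library scaling acts on both classes alike. The mean log2 level of the 13 NK and cytotoxic genes minus that of the 18 T cell genes was −0.81, −0.40, −1.44, −0.82, −0.30, −0.98 and −0.63 in AML replicates 1 to 7. It was −0.07, 0.19, 0.17 and −0.05 in whole marrow and 0.50, 0.26, 0.61 and 0.02 in lineage-negative marrow. On this log2 mean the T cell genes exceeded the NK genes in all 7 AML libraries, and the AML values lay below all 8 normal ones. Summed normalized counts per kb, to which Nkg7 adds most among NK genes, were instead higher for NK than for T cell genes in AML replicates 4 (1240.2 against 1163) and 5 (1426 against 1010). The group means were −0.77 ± 0.38 (SD, n = 7), 0.06 ± 0.14 (SD, n = 4) and 0.35 ± 0.26 (SD, n = 4). The shift was −0.83 from whole marrow to AML, −1.12 from lineage-negative marrow to AML and 0.29 from whole to lineage-negative marrow, where the pooled SD within groups was 0.28. With TMM the first 2 shifts were −0.82 and −1.12. The mean log2 level was 6.12 in whole marrow and 7.42 in AML for T cell genes, and 6.18 and 6.65 for NK genes, where the median of all genes differed by 0.67. Relative to that shift the median differences were 0.61 for T cell genes and −0.05 for NK genes. The further lists of T cell and NK genes described below did not repeat this order. Their median relative differences between AML and whole marrow were −0.37 for other T cell genes and −0.10 for other NK and cytotoxic genes. Against lineage-negative marrow their median log2 differences were 1.53 and 1.68. The contrast above is therefore that of the 18 and 13 genes named, and not of all T cell and NK genes.

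**Figure D4:**
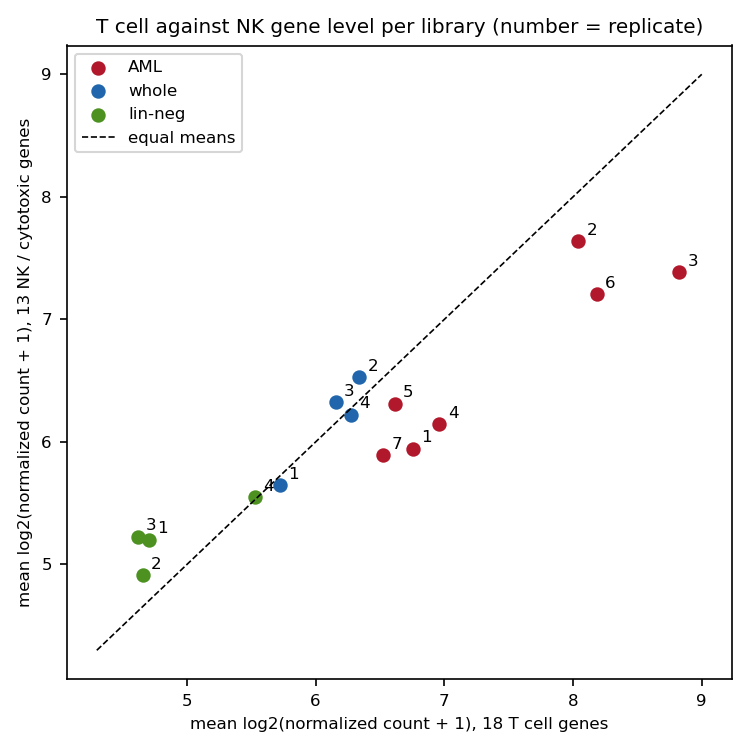
Mean log2(normalized count + 1) of the 18 T cell genes (horizontal axis) and of the 13 NK and cytotoxic genes (vertical axis) in each library, numbered by replicate, with a dashed line where both are equal. AML libraries lie below the line, by 0.30 to 1.44, and replicates 2, 3 and 6 stand apart from the other 4 at higher levels.

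AML libraries varied more in these genes than in most others. The median SD of log2 values within AML was 1.13 for T cell genes, 1.05 for NK and cytotoxic genes and 1.01 for shared genes, while for all genes tested it was 0.41. In whole marrow these medians were 0.43, 0.36 and 0.25, against 0.48 for all genes, and in lineage-negative marrow 0.61, 0.47 and 0.49, against 0.33. AML replicate 6 was the highest AML library for 16 of the 36 genes, replicate 3 for 12, replicate 2 for 7 and replicate 5 for Nkg7. Replicate 7 was the lowest for 14 genes. B cell markers, which are summed here as another lymphoid lineage, were also highest in AML replicate 3, with 3456 normalized counts per kb against a median of 651 in AML. In whole marrow the sum was 1801 to 3698 and in lineage-negative marrow 219 to 363, where Pax5 was listed at 0 in replicate 2. Of 10 B cell markers 9 were lower in AML than in whole marrow and 8 higher than in lineage-negative marrow, where 11.3% and 17.7% of all genes were called so. The part of B cells in the T cell values was not tested.

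The high libraries were high for different genes. In replicate 3, Cd8a reached 645, Cd8b1 246 and Klrd1 773, while Ncr1 was 17.2, below the AML median. Replicate 2 was highest for Ncr1 (106), Eomes (289), Prf1 (235) and Gzmb (244). In replicate 6 the ratio to the median of the other 6 AML libraries was 14.995 for Ifng, 11.5 for Icos, 10.2 for Trbc2, 8.20 for Gata3, 6.97 for Cd247 and 6.76 for Cd5. The same ratio was 0.219 for Klrd1, 0.322 for Ncr1, 0.368 for Trbc1, 0.429 for Cd28 and 0.460 for Thy1. T cell genes therefore did not move as one in this library. The level of the olfactory and vomeronasal receptor genes was also highest there among AML libraries, at 1.01 per kb, and the counts above were called again without AML replicates 5 and 6, with no count moved by over 1.5 times.

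In replicate 6 the beta constant genes parted. It held 1912 normalized counts of Trbc2 and 36.2 of Trbc1, a ratio of 57.1 per kb of exon, where the other AML libraries had 1.77 to 2.51, whole marrow 1.65 to 2.39 and lineage-negative marrow 0.567 to 2.10. The coding parts of Trbc1 and Trbc2 have 518 bases each and differ in 23, of which 1 lies in the first coding exon of 375 bases. Reads of that exon could be divided between the genes in counting, and those of the later exons are told apart by more bases. Bases 371 to 518 of both coding sequences on GRCm38, counted from 1 at the first coding base, are shown with the 22 differing bases in capitals.
Trbc1: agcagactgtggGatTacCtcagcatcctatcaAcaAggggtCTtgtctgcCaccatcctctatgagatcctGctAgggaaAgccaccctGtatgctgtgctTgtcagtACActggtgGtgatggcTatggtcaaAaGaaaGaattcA
Trbc2: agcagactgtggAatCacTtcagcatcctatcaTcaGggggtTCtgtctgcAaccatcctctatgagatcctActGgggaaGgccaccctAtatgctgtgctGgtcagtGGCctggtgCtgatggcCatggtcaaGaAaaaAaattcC

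The variable segments were looked at after this ratio had been seen. A T cell clone carries 1 rearranged beta chain, made of a V segment, joining parts and either constant region, and daughter cells inherit it. In AML replicate 6, Trbv26 (ENSMUSG00000076479) had 402 normalized counts, 89.8% of the 448 summed over 21 Trbv segments of the table. In the other AML libraries Trbv26 made up 0% to 10.9% of the sum, in whole marrow 0% to 5.10% and in lineage-negative marrow 0% to 5.41%. The sums were 42.3 to 52.5 in whole marrow, 7.93 to 24.1 in lineage-negative marrow and 49.6 in AML replicate 7, which had the 10.9%. Shares of such small sums rest on few reads. AML replicates 2 and 3 had summed Trbv counts of 301 and 423 with Trbv26 at 4.11% and 0.87%. Among 91 Trav segments, Trav6-6 and Trav6d-6 had 95.5 normalized counts each in replicate 6, together 70.7% of a sum of 270.4, and the next segment, Trav10, had 29.1. Their coding sequences of 344 bases differ in 0 positions, so their reads cannot be told apart. In the other AML libraries this pair made up 0% to 12.9%, the highest in replicate 7 with a Trav sum of 33.4. The high shares of Trbv26 and of this pair rest on 1 library. The last 300 bases of the coding part of Trbv26 on GRCm38 are shown as the segment that dominated. In the table's coordinates this segment lies on chromosome 6, 41204439 to 41204927, plus strand.
Trbv26: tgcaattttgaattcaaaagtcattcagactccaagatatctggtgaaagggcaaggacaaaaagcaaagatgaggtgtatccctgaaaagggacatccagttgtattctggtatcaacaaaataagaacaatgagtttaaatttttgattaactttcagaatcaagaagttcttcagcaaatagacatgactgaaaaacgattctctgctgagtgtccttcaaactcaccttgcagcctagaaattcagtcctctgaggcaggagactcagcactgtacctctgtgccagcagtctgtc

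**Figure D5:**
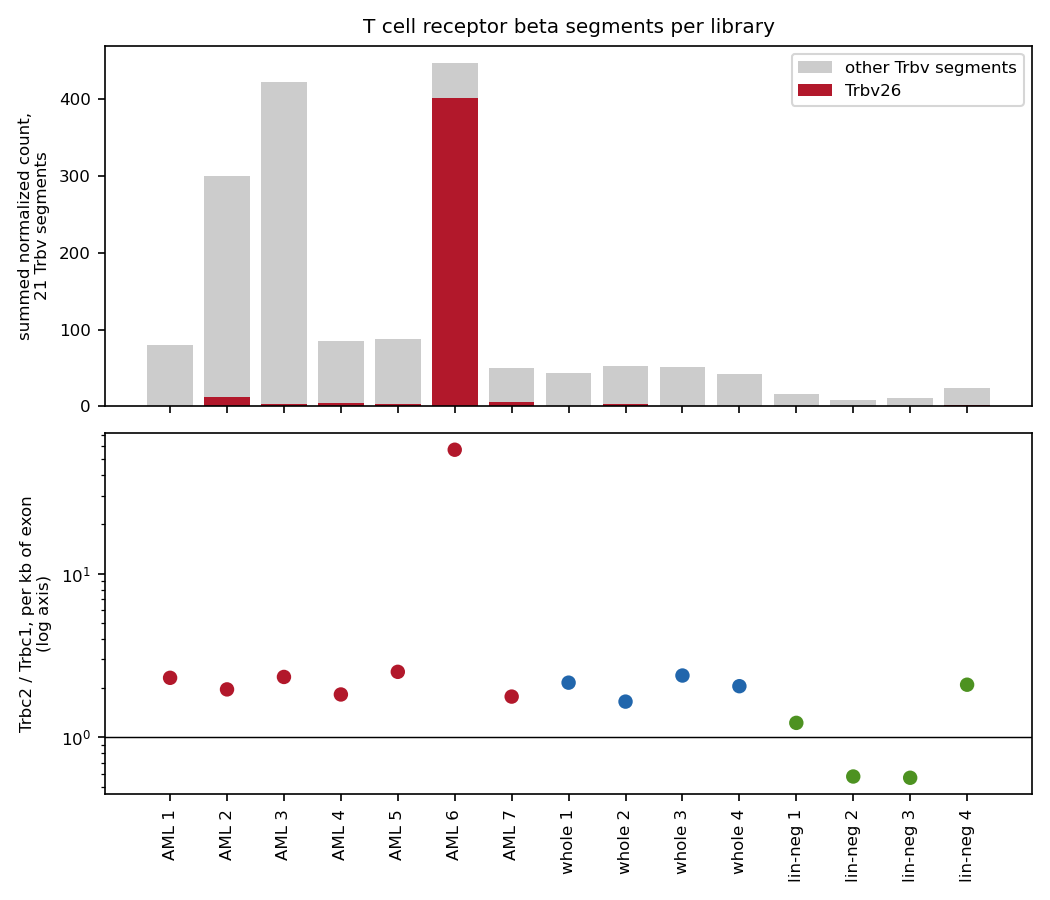
Top, summed normalized counts of 21 Trbv segments in each library, with Trbv26 in red; bottom, ratio of Trbc2 to Trbc1 per kb of exon on a log axis, with a line at 1. AML replicate 6 stands apart in both, with 402 of 448 from Trbv26 and a ratio of 57.1.

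Further genes of the same pathways were listed beside the 36. Of 26 other T cell genes 24 were tested, and 14 were higher and 4 lower in AML than in lineage-negative marrow, 7 higher and 2 lower than in whole marrow. The shares of all genes were 17.7% and 12.5% in the first comparison and 27.3% and 11.3% in the second. With TMM scaling the counts against whole marrow were 2 higher and 3 lower, where 4.74% and 16% of all genes were called. Against whole marrow the largest differences were those of Ctla4, an inhibitory receptor of activated and regulatory T cells, Tnfrsf4, the OX40 costimulator, and Lef1, a factor of naive T cells and lymphoid progenitors. Ctla4 had 31.8, 83.1 and 290.4 in AML, 14.4, 14.7, 14.6 and 13.6 in whole marrow and 3.63, 0.881, 3.53 and 4.57 in lineage-negative marrow, with log2 differences of 2.62 and 4.62. Its lineage-negative replicate 2 lay under the floor. Tnfrsf4 was higher and Lef1 lower in AML than in whole marrow, with log2 differences of 2.39 and −2.04 (relative differences 1.72 and −2.71). Cd2, an adhesion molecule, and Sit1, a transmembrane adaptor, rose against lineage-negative marrow by 4.19 and 3.81. Sit1 had 0, 0.881, 0.881 and 5.87 in lineage-negative marrow, where replicates 1 to 3 lay under the floor, so the size of its differences from that group is uncertain. In lineage-negative against whole marrow 4 of the 24 were higher and 11 lower, led by Lef1 (−3.94), Sit1 (−3.69) and Cd2 (−3.56). Lineage-negative replicate 3 of Lef1 (1.76) was also under the floor. The shares of all genes there were 33.1% and 17.2%.

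Of 33 other NK and cytotoxic genes 29 were tested, and 21 were higher and 1 lower in AML than in lineage-negative marrow, 10 higher and 3 lower than in whole marrow, against the same shares of all genes. With TMM scaling 5 were higher and 6 lower than in whole marrow, where 4.74% and 16% of all genes were called. Gzmk, a granzyme of memory CD8 T cells, had 9.71, 44.5 and 424 in AML, 1.80, 1.34, 4.17 and 5.46 in whole marrow and was listed at 0 in all 4 lineage-negative libraries. All AML libraries lay above all normal ones, with the highest in replicate 6. Klra8, the Ly49H receptor of mouse NK cells, had 0.0000000213, 2.83 and 13.5 in AML and 16.2, 23.4, 18.8 and 38.2 in whole marrow, a log2 difference of −2.62 (SE 0.59, adjusted p = 0.000892). AML replicates 4, 6 and 7 lay under the floor and replicates 1 and 5 at it, so the size of this difference is uncertain. The Ly49 genes are near-identical relatives, so the division of reads among them is uncertain. Cd244a, the 2B4 receptor, was higher in AML than in whole marrow by 2.36, and Ccl5, a chemokine, and Tyrobp, the DAP12 adaptor that myeloid cells also use, were higher than in lineage-negative marrow by 3.54 and 2.96. In lineage-negative against whole marrow 1 of the 29 was higher and 17 were lower, led by Klra8, Klra4 and Klra9. The lineage-negative values of Klra8, Klra4 and Klra9, from 0 to 2.72, lay at or under the floor. Of all genes, 33.1% were higher and 17.2% lower in that comparison.

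Markers of other cells were counted in the same comparisons. Against lineage-negative marrow, AML had 6 of 8 plasmacytoid dendritic cell markers higher and 7 of 9 neutrophil and monocyte markers higher with 1 lower. Of all genes, 17.7% were called higher and 12.5% lower there. Against whole marrow, 3 of 8 and 3 of 9 were higher and none lower, where 27.3% of all genes were called higher and 11.3% lower. Plasmacytoid dendritic cell markers summed to 455 to 3389 per kb in AML, lowest in replicate 6, to 834 to 1853 in whole marrow and to 220.1 to 314 in lineage-negative marrow, where Klk1 was listed at 0 in replicates 2 and 3. All 7 erythroid markers were lower in AML than in whole marrow. Of 8 innate lymphoid cell markers 4 were tested, of which 3 were higher in lineage-negative than in whole marrow and 3 lower in AML than in lineage-negative marrow. Of all genes, 33.1% and 12.5% were called so. The part of these cells in the T and NK gene values was not tested.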

How the data were processed

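Per the submitters' processing notes, reads were processed with Partek, STAR and DESeq2, and the build named is mm10; no versions are given. The deposited table holds estimated gene counts that the authors divided by DESeq2 poscounts size factors, a signal with fractional values, so whole reads were not recovered and no count model was used. Depth was estimated from the value of 1 read in each library, and floors cover counting error only. Starts in the table differ from GRCm38 for all 36 genes and lengths for none, so coordinates are as in the table.

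Genes with at least 10 normalized counts in at least 4 samples were kept (18941 of 38315). Group means of log2(value + 1) were fitted together in limma 3.58.1 (R 4.3.3, empirical Bayes with trend, two-sided), tested on simulated data. A fold on this scale understates changes of low genes. Groups and replicate numbers came from the sample titles. Levels per kb used GENCODE vM21 exon lengths. Reads of paralogs and overlapping genes may be divided in counting.

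The members and gene lists were chosen with earlier results of these data known. All 36 members were named, and of each further list the 3 called genes with the largest difference per comparison. Alternatives were pseudocounts of 0.1 and 5, other filters, TMM, voom, pairwise and robust fits, a replicate block and leaving out each library. Leaving out AML replicates 5 and 6 together, subtraction of the receptor level and the V segments were chosen after seeing the data.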

Additional observations from a re-analysis of the deposited data

Results flagged for a closer look

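In 4 of 108 sets of libraries, each 1 gene in 1 group, the highest or lowest library lay far from the rest; chance gives about 1 in 20. In AML, Cd8a was 645 in replicate 3, where the nearest library had 190.1. Whole marrow replicate 1 had 40.4 of Cd8a, and the nearest library 83.2. AML replicate 7 had 173 of Nkg7, and the nearest library 552. Lineage-negative replicate 3 had 14.9 of Cd247, and the nearest library 31.9.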

How the results depend on the processing

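Counts of the 36 genes against lineage-negative marrow, and the contrast of NK with T cell genes in each comparison, kept their direction under the alternatives tried, the counts within 1.5 times and the contrast within the spread between libraries. Without single libraries, 25 to 28 genes were called higher and 1 lower in AML against lineage-negative marrow. The contrast ran from −0.91 to −0.72 for AML against whole marrow, from −1.23 to −1.01 for AML against lineage-negative marrow and from 0.20 to 0.40 for lineage-negative against whole marrow. Against whole marrow the number called higher in AML was 2 with TMM and 0 with voom, and 5 to 21 without single libraries, the lowest without whole marrow replicate 1. The number called lower was 2 with TMM and 3 with voom, and 0 to 1 without single libraries, 1 being Gzma without AML replicate 6. For lineage-negative against whole marrow, TMM and voom gave 0 higher, and 27 were lower with TMM. Without single libraries 2 to 3 were higher and 14 to 16 lower. The cause of these moves beyond the shift of the median of all genes was not tested.

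Small differences reversed. With TMM, AML against whole marrow was −0.0089 for Gata3, −0.051 for Cd96, −0.062 for Eomes, −0.093 for Prf1, −0.10 for Il2rb, −0.21 for Cd8b1 and −0.47 for Nkg7. With voom it was −0.047 for Ifng, −0.089 for Eomes and Cd96, −0.091 for Gata3, −0.11 for Il2rb, −0.15 for Prf1, −0.26 for Cd8b1 and −0.47 for Nkg7. With the receptor level subtracted it was 0.27 for Txk. Lineage-negative against whole marrow was −0.028 for Cd96 with TMM and −0.034 with voom, and −0.42 and −0.36 for Icos. Without AML replicates 5 and 6, AML against lineage-negative marrow was 0.041 for Cd96 and 0.20 for Ncr1. Without single libraries it ran from −0.58 to 0.039 for Gata3, −0.48 to 0.018 for Ncr1, −0.67 to 0.057 for Gzmb and −0.24 to 0.14 for Cd96. Nkg7 in AML against whole marrow ran from −0.022 to 0.51, and Icos in lineage-negative against whole marrow from −0.064 to 0.43.

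Replicate numbers did not pair the samples: the correlation of deviations in 12 same-numbered pairs ran from −0.29 to 0.17. With the replicate number as a block, 23 genes were higher and 0 lower in AML than in whole marrow, 26 and 1 than in lineage-negative marrow, and 3 higher and 17 lower in lineage-negative than in whole marrow. The contrast of NK with T cell genes was −0.93, −1.22 and 0.29 under the block. AML against lineage-negative marrow reversed to 0.072 for Ncr1, 0.11 for Lat and 0.16 for Cd96. AML replicates 5 to 7 have no partner and add nothing to the blocked comparison. Depth in whole marrow, the lowest of the groups, limits genes near the floor. Ifng lay under the floor in AML replicate 7 and lineage-negative replicate 1, and near it in whole marrow replicate 1 (3.59).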

Other observations

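Some transcripts of activated or memory T cells were highest among AML libraries in replicate 6, the library dominated by Trbv26, and others were not. Il13, a cytokine of helper T cells and innate lymphoid cells, had 48.1 normalized counts there and 0 to 0.944 in the other AML libraries. Gzmk had 424 there and 9.71 to 178 in the others, and Trat1, an adaptor bound to the receptor, 69.1 against 3.82 to 23.3. Cd40lg, the ligand by which helper T cells activate B cells, had 29.6 there and 19.6 in replicate 3, and 1.08 to 5.07 in the others. Of other genes of activated T cells, Ctla4 had 241 in replicate 6 and 290.4 in replicate 3, Il2ra 41.96 and 96.8, and Fasl was lowest in replicate 6, at 27.1. These 7 genes were chosen after their values were seen.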
